A study of Homo sapiens with 12 samples.

Results

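The epidermal growth factor receptor (EGFR) family is described here through 10 genes, taken by name from the 59324 genes of the expression table. They are the receptors EGFR, ERBB2 and ERBB3, the ligands AREG, EREG, TGFA, HBEGF, BTC and EPGN, and the receptor inhibitor ERRFI1. All 10 had a row. Expression was measured by RNA sequencing in MDA-MB-468, an established line of human breast cancer cells of the basal type whose genome holds extra EGFR copies, as 4 groups of 3 libraries. Control cells were compared with cells given SAHA (10 µM for 12 h), an inhibitor of zinc-dependent histone deacetylases also called vorinostat, and with cells given sonidegib (10 µM, labelled as a pretreatment of 72 h), an inhibitor of the Hedgehog pathway protein Smoothened. The combination group received both agents at those doses and times. Every group was this 1 line, the kind of control is not described beyond its name, and whether separate cultures lay behind the 3 libraries of each group is not said. The p-values therefore rest on the spread of these libraries alone, which may be technical. Levels are in TPM, a relative transcript abundance corrected for transcript length, so levels of different genes can be set side by side. Because TPM are shares of the RNA in a bulk sample, fewer cells of a type and less RNA per cell cannot be told apart.

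EGFR, ERBB2 and ERBB3 are receptor tyrosine kinases that act in pairs. EGFR is opened by its ligands, ERBB2 has no known ligand of its own and serves as a partner of the others, and ERBB3 binds neuregulins but has a weak kinase and signals through its partner. The ligands are made as membrane-anchored precursors that proteases release, and the paired receptors feed the RAS-MAPK and PI3K-AKT pathways. ERRFI1 (also called MIG6) binds the EGFR kinase and holds it inactive, and it is itself induced by growth factor signalling. In basal-type breast cancer EGFR is often abundant, whereas ERBB2 is amplified in a different class of breast tumours.

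The start regions of 5 members are shown because their levels took contrasting courses. AREG and HBEGF rose with SAHA, EREG lies next to AREG and stayed near 0, EGFR held the highest level, and ERBB2 fell with SAHA and rose with sonidegib. Each is the RefSeq window (GRCh38.p14) from 250 bases before to 50 bases after the annotated start, 5′ to 3′. The positions are chr4:74444886-74445185 on the plus strand for AREG, chr4:74364895-74365194 (plus) for EREG, chr5:140346554-140346853 (minus) for HBEGF, chr7:55018767-55019066 (plus) for EGFR and chr17:39687844-39688143 (plus) for ERBB2. Windows were found for 9 of the 10 genes (not ERBB3). Capitals mark matches on either strand to 5 short motifs: TGACGTCA (the cAMP response element), TGACTCA (a binding sequence of AP-1), GGGCGG (called a GC box below), TATAAA (named after its first letters) and CCAAT (named as spelled). Overlapping matches run together in 1 stretch of capitals.
AREG: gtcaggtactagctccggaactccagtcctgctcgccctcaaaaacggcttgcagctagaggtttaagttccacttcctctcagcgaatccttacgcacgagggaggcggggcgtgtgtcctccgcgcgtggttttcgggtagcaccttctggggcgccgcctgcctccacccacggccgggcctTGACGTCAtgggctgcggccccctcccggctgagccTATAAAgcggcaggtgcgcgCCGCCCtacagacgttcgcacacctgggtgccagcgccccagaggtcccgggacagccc
EREG: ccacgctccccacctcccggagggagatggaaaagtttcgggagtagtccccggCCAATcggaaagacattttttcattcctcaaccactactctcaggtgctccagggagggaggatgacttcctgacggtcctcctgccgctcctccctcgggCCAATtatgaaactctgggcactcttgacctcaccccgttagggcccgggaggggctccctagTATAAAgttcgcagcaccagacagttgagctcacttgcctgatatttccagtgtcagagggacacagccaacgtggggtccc
HBEGF: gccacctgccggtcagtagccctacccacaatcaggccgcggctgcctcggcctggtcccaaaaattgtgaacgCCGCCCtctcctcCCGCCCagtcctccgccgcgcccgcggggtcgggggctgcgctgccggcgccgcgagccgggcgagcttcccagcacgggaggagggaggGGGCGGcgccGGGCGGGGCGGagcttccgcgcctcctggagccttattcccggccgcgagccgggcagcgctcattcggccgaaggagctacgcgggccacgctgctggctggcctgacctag
EGFR: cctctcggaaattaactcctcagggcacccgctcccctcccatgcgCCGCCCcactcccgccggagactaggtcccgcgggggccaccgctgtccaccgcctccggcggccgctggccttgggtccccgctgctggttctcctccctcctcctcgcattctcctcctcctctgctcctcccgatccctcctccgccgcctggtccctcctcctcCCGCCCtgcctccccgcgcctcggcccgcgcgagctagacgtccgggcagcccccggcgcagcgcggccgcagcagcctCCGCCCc
ERBB2: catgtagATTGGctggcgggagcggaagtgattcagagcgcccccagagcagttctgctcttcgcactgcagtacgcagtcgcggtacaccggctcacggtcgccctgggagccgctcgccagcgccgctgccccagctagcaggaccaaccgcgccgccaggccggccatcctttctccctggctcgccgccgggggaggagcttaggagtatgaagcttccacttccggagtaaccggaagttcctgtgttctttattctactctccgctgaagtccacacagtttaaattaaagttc
The AREG window held a cAMP response element whose first base lay 65 bases before the start, a motif found in 1.85% of all 35116 windows of this length. It also held a TATA box 29 bases before the start (11.5% of windows) and 1 GC box (45% of windows). The EREG window held a TATA box 32 bases before the start and 2 CCAAT boxes (34.6% of windows). HBEGF had 5 GC boxes, EGFR had 3, and ERBB2 had 1 CCAAT box. GC content was 75% for HBEGF, 75.3% for EGFR, 66.3% for AREG, 60.7% for ERBB2 and 57.7% for EREG, against a median of 58.7% over all windows. None of these 5 windows held the AP-1 letters, which 4.95% of windows have. EGFR has a second RefSeq window, for a start within the gene (chr7:55109589-55109888, not printed), which held 2 AP-1 matches and 2 TATA boxes. The ERBB2 window lies within the gene PGAP3, which is on the other strand. Its annotated start is 180 bases after the ERBB2 gene start at 39687914. Which starts these cells used was not measured. All these motif matches describe letters and were not tested against the levels.

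The libraries carried the markers of an epithelial line. All 8 epithelial genes (EPCAM, CDH1 and 6 keratins) had a mean above 1 TPM, summing to between 5559 and 12851 TPM in a library, and the hormone receptors ESR1 and PGR summed to at most 1.76 TPM. This epithelial sum was lower in the libraries given sonidegib, with means of 6011 TPM for sonidegib and 5634 TPM for the combination against 10882 TPM for control and 12477 TPM for SAHA. Of 6 leukocyte markers 2 had a mean of at least 1 TPM, CD14 (a receptor for bacterial lipid that is not limited to leukocytes) and CD68, while the pan-leukocyte marker PTPRC was at 0.00333 TPM in each group's mean. The leukocyte sum, nearly all CD14, had means of 314, 326, 316 and 225 TPM in control, SAHA, sonidegib and combination. Of 10 fibroblast and endothelial markers only COL1A1 and KDR reached that mean. Their sum was higher with SAHA, with a mean of 17.5 TPM (15.2 to 18.9) for SAHA and 14.2 TPM (13.7 to 14.6) for the combination, against 8.36 TPM (7.23 to 9.31) for control and 8.73 TPM (6.96 to 10.4) for sonidegib. The fibroblast genes LUM and DCN stood at no more than 0.0333 TPM in any group mean. In the 6 libraries without sonidegib the 17 genes for 5S ribosomal RNA were all at 0 TPM. Their sum was 1488 to 12641 TPM in each of the 6 with it. Mitochondrial ribosomal RNA made up 0.565% to 0.67% of TPM in control and 1.18% to 1.35% with SAHA. It made up 2.06% to 2.48% with sonidegib and 2.41% to 2.86% with the combination. Control and SAHA did not overlap, and every library with sonidegib lay above every library without it. Any difference in preparation or processing between those sets and the effect of sonidegib cannot be told apart. Comparisons of SAHA with control, and of the combination with sonidegib, stay within a set, though mitochondrial ribosomal RNA differed between SAHA and control.

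**Figure D1:**
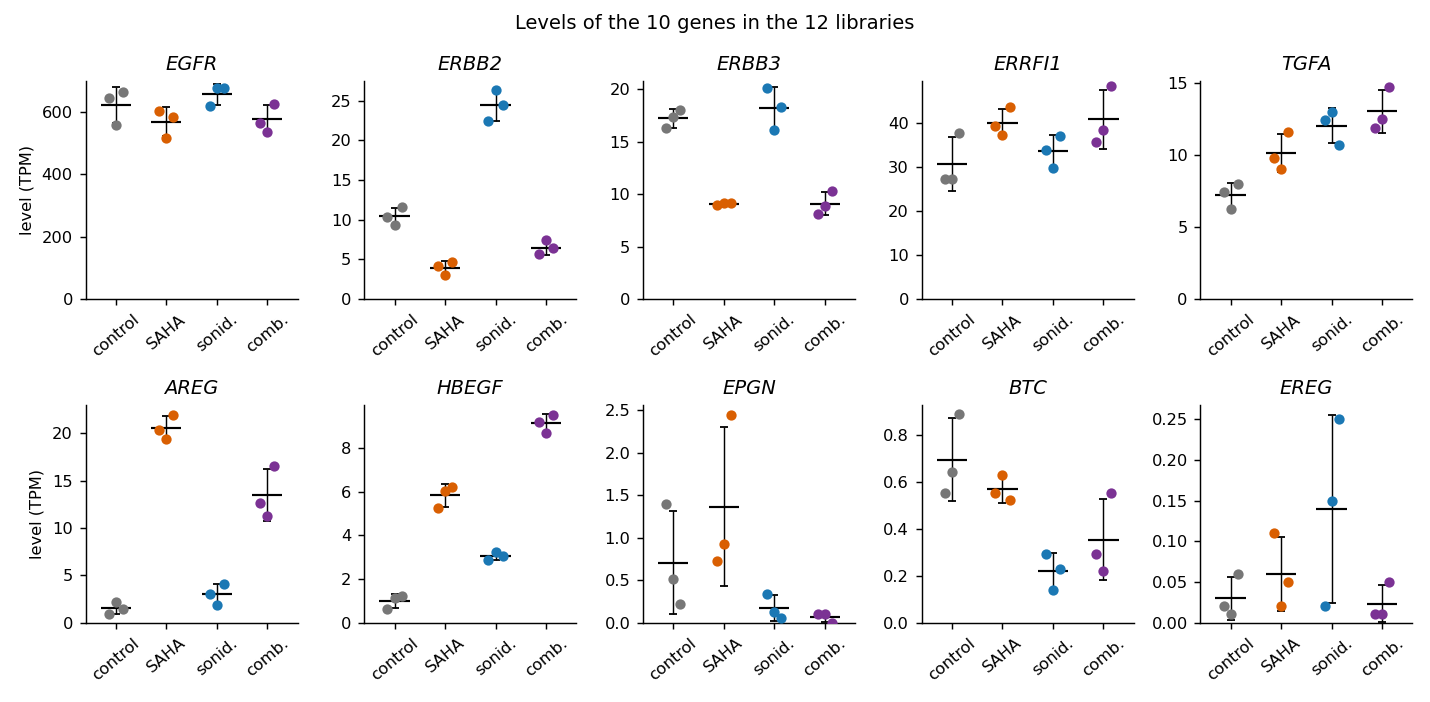
Level of each of the 10 genes in TPM (vertical axes, linear from 0) in control, SAHA, sonidegib (sonid.) and combination (comb.). Points are the 3 libraries of a group, horizontal lines the mean and bars the SD. ERBB2 is lowest with SAHA and highest with sonidegib, AREG and HBEGF are lowest in control, and EGFR stays between 516 and 678 TPM in all 12 libraries.

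EGFR was by far the most abundant member in every group. EGFR (ENSG00000146648, chromosome 7, 55019021 to 55211628, GRCh38) stood at 647, 558 and 664 TPM in the control libraries, 605, 516 and 585 TPM with SAHA, 619, 678 and 677 TPM with sonidegib, and 566, 537 and 627 TPM with the combination. Control and the combination each overlapped every other group, but all SAHA libraries lay below all sonidegib libraries. SAHA and sonidegib were not tested against each other. By group mean EGFR ranked 238th of 23532 genes above 0 in control, 246th with SAHA, 210th with sonidegib and 229th with the combination. It made up 95.7% ± 0.303 (SD, n = 3) of the TPM of the 3 receptors in control. Each change below is a difference in log2(TPM + 1) ± its standard error (SE). Adjusted p-values come from limma over 13937 tested genes, and a gene is called at an adjusted p under 0.05.

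No comparison called EGFR. Its log2 difference from control was -0.13 ± 0.084 with SAHA (95% confidence interval -0.31 to 0.06, adjusted p = 0.208), 0.08 ± 0.084 with sonidegib (-0.10 to 0.27, adjusted p = 0.439) and -0.11 ± 0.084 with the combination (-0.29 to 0.08, adjusted p = 0.275). Against sonidegib the combination gave -0.19 ± 0.084 (-0.38 to -0.01, adjusted p = 0.0969). After median-of-ratios or 75th percentile scaling EGFR was called lower with SAHA (-0.20 and -0.19, adjusted p = 0.022 and 0.0316). The antisense gene EGFR-AS1, which lies within EGFR on the other strand, was between 0.5 and 1.59 TPM in all libraries.

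ERBB2 moved in opposite directions with the 2 agents. ERBB2 (ENSG00000141736, chromosome 17, 39687914 to 39730426) stood at 10.3, 9.34 and 11.5 TPM in control, 4.14, 3.05 and 4.62 TPM with SAHA, 22.5, 26.3 and 24.4 TPM with sonidegib, and 5.65, 7.39 and 6.39 TPM with the combination. No 2 groups overlapped: SAHA libraries were lowest, then the combination, control and sonidegib. Its mean was 2.64-fold lower with SAHA than in control (log2 change -1.22 ± 0.13, adjusted p = 1.14e-05). With sonidegib it was 2.35-fold higher (1.16 ± 0.13, adjusted p = 2.24e-05). Adding SAHA after sonidegib lowered it 3.77-fold against sonidegib alone (-1.77 ± 0.13, adjusted p = 2.85e-06), to a level below control (-0.61 ± 0.13, adjusted p = 0.00184) and above SAHA alone (0.61 ± 0.13, adjusted p = 0.00275). These 5 calls were kept in all 23 alternative analyses.

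ERBB3, the receptor for neuregulins, fell with SAHA whether or not sonidegib was given. ERBB3 (ENSG00000065361, chromosome 12, 56076799 to 56103505) stood at 16.3, 17.3 and 18.1 TPM in control and at 20.1, 16.1 and 18.3 TPM with sonidegib, which overlapped. With SAHA it stood at 8.96, 9.13 and 9.19 TPM and with the combination at 8.14, 8.89 and 10.3 TPM, which overlapped each other and lay below the other 6 libraries. The log2 change was -0.85 ± 0.096 for SAHA against control (adjusted p = 1.4e-05) and -0.92 ± 0.096 for the combination against sonidegib (adjusted p = 2.62e-05). Sonidegib alone differed from control by 0.07 ± 0.096 (95% confidence interval -0.14 to 0.28, adjusted p = 0.566), and the combination differed from SAHA by -0.004 ± 0.096 (-0.21 to 0.21, adjusted p = 0.978).

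The balance of the receptors shifted accordingly. The ratio of EGFR to ERBB2 in TPM averaged 59.9 ± 2.49 for control and 147 ± 21.3 for SAHA, 27 ± 1.08 for sonidegib and 90.3 ± 15.3 for the combination (SD, n = 3). ERBB3 exceeded ERBB2 in control, with a ratio of 1.66 ± 0.164, and lay below it with sonidegib, at 0.752 ± 0.141. The ratios with SAHA (2.38 ± 0.536) and the combination (1.42 ± 0.203) were above 1. ERBB2 overlaps PGAP3 and MIEN1 on the opposite strand, and whether the counting used strand is not stated. PGAP3 was at 2.44, 0.923, 2.98 and 1.5 TPM in control, SAHA, sonidegib and combination, and MIEN1 at 37, 74.2, 44.9 and 69.4 TPM. The PGAP3 means ran in the same order of groups as those of ERBB2, lowest with SAHA and highest with sonidegib. MIEN1, which was called higher with SAHA (0.99 ± 0.10, adjusted p = 6.36e-06), went the other way from ERBB2 there. How far reads shared with these genes enter the value of ERBB2 was not tested.

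AREG, which encodes the ligand amphiregulin, made the largest change of the 10 genes with SAHA. AREG (ENSG00000109321, chromosome 4, 74445134 to 74455009) stood at 0.95, 2.18 and 1.48 TPM in control and at 20.4, 19.4 and 22 TPM with SAHA. With sonidegib it stood at 2.99, 1.86 and 4.1 TPM and with the combination at 12.6, 11.3 and 16.5 TPM. Every library given SAHA lay above every library without it. The mean was 13.4-fold higher with SAHA than in control (3.11 ± 0.22, adjusted p = 3.58e-07) and 4.52-fold higher with the combination than with sonidegib (1.88 ± 0.22, adjusted p = 6.64e-05). Sonidegib alone, whose libraries overlapped control, gave 0.64 ± 0.22 (adjusted p = 0.0297). That call was lost in 7 of 23 alternatives, among them leaving out control replicate 1 or 3 or sonidegib replicate 1 or 3 (0.44 to 0.64, adjusted p = 0.0651 to 0.125). The combination lay below SAHA alone with no overlap (-0.59 ± 0.22, adjusted p = 0.045), a call lost in 15 of 23 alternatives. Among the 15, leaving out control replicate 3, any of the 3 SAHA replicates, sonidegib replicate 1 or combination replicate 1 or 2 gave -0.63 to -0.48 (adjusted p = 0.0583 to 0.147).

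HBEGF, the heparin-binding ligand of EGFR, rose with each agent and was highest with both. HBEGF (ENSG00000113070, chromosome 5, 140332843 to 140346631) stood at 0.63, 1.13 and 1.2 TPM in control, 5.23, 6.05 and 6.23 TPM with SAHA, 2.87, 3.23 and 3.07 TPM with sonidegib, and 9.19, 8.71 and 9.51 TPM with the combination. No 2 groups overlapped. Means were 5.92-fold higher than control with SAHA (1.79 ± 0.13, adjusted p = 3e-07), 3.1-fold higher with sonidegib (1.04 ± 0.13, adjusted p = 3.12e-05) and 9.26-fold higher with both agents (2.36 ± 0.13, adjusted p = 2.65e-08). The combination also exceeded SAHA alone (0.57 ± 0.13, adjusted p = 0.0027) and sonidegib alone (1.32 ± 0.13, adjusted p = 1.39e-05). The added 1 shrinks log2 changes of genes near 1 TPM, and with 0.1 added the sonidegib change of HBEGF was 1.58.

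TGFA, transforming growth factor alpha, was the most abundant ligand in control and rose modestly. TGFA (ENSG00000163235, chromosome 2, 70447280 to 70554193) stood at 7.44, 6.25 and 7.96 TPM in control, 9.83, 9.01 and 11.6 TPM with SAHA, 12.5, 13 and 10.7 TPM with sonidegib, and 11.9, 12.5 and 14.7 TPM with the combination. Control libraries lay below all others, and SAHA overlapped sonidegib. The log2 change against control was 0.44 ± 0.12 with SAHA (adjusted p = 0.00851), 0.67 ± 0.12 with sonidegib (adjusted p = 0.000662) and 0.77 ± 0.12 with both (adjusted p = 0.000167). The combination differed from sonidegib by 0.10 ± 0.12 (95% confidence interval -0.16 to 0.37, adjusted p = 0.532). It exceeded SAHA alone by 0.33 ± 0.12 (adjusted p = 0.0384). That last call was lost in 7 of 23 alternatives, among them without SAHA replicate 1 or 2, sonidegib replicate 1 or combination replicate 2 or 3 (0.25 to 0.36, adjusted p = 0.0507 to 0.136).

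The other 3 ligands were scarce and fell below the filter of a mean of 1 TPM, so they were tested in a fit of all 29345 genes above 0 in any library. EREG (epiregulin) was between 0.01 and 0.25 TPM and no comparison called it. BTC (betacellulin) stood at 0.55, 0.64 and 0.89 TPM in control and 0.55, 0.63 and 0.52 TPM with SAHA, and at 0.29, 0.14 and 0.23 TPM with sonidegib and 0.29, 0.22 and 0.55 TPM with the combination. It was called lower with sonidegib (-0.47 ± 0.11, adjusted p = 0.0074) and with the combination against control (-0.33 ± 0.11, adjusted p = 0.0388), where 26.4% and 32.1% of the genes of that fit were called. EPGN (epigen) varied widely within groups, at 1.39, 0.51 and 0.22 TPM in control and 0.72, 0.93 and 2.44 TPM with SAHA. It stood at 0.34, 0.12 and 0.05 TPM with sonidegib and was listed at 0.1, 0.1 and 0 TPM with the combination. Only the combination against SAHA was called for EPGN (-1.08 ± 0.28, adjusted p = 0.0181), with 24.9% of that fit's genes called.

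EPGN, EREG, AREG and BTC lie in this order on chromosome 4 within 486 kb, between 74308473 and 74794686. EREG ends 56.4 kb before AREG begins. In the SAHA libraries AREG was at a mean of 20.6 TPM and its neighbour EREG at 0.06 TPM (highest library 0.11 TPM). Beyond the cluster, MTHFD2L (a mitochondrial folate enzyme) fell with SAHA by 0.77 ± 0.16 on the log2 scale (adjusted p = 0.00179) and RCHY1 (a ubiquitin ligase) fell by 0.55 ± 0.17 (adjusted p = 0.0133). THAP6, the third tested gene beyond the cluster, differed by 0.14 ± 0.16 (adjusted p = 0.497). PARM1, the fourth listed neighbour, lay below the filter and was read from the fit of all genes. It stood at 0.29, 0.31 and 0.2 TPM in the control libraries and 1.74, 1.78 and 2.01 TPM in those given SAHA, with no overlap. Like AREG it was called higher with SAHA (1.17 ± 0.13, adjusted p = 4.82e-05, 29.9% of that fit's genes called). PARM1 was also called lower in the combination than with SAHA alone (-0.42 ± 0.13, adjusted p = 0.0355, 24.9% of that fit's genes called). In the same fit AREG was not called between the combination and SAHA (-0.59 ± 0.23, adjusted p = 0.101).

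Summed over the 6 ligands, the level was 11.2 ± 0.569 TPM in control, 38.5 ± 3.72 TPM with SAHA, 18.6 ± 0.314 TPM with sonidegib and 36.1 ± 4.61 TPM with the combination (SD, n = 3). The make-up of the sum differed between the groups. TGFA supplied 64.5% ± 5.36 in control and 64.7% ± 6.11 with sonidegib. With SAHA AREG supplied 53.5% ± 2.04 and TGFA 26.3% ± 1.12. With the combination AREG (37.1% ± 2.81) and TGFA (36.2% ± 1.71) were close, and HBEGF reached 25.5% ± 2.18. EGFR transcripts exceeded the ligand sum 55.7 ± 3.47 times in control, 14.8 ± 1.45 times with SAHA, 35.4 ± 2.39 times with sonidegib and 16 ± 0.769 times with the combination.

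**Figure D2:**
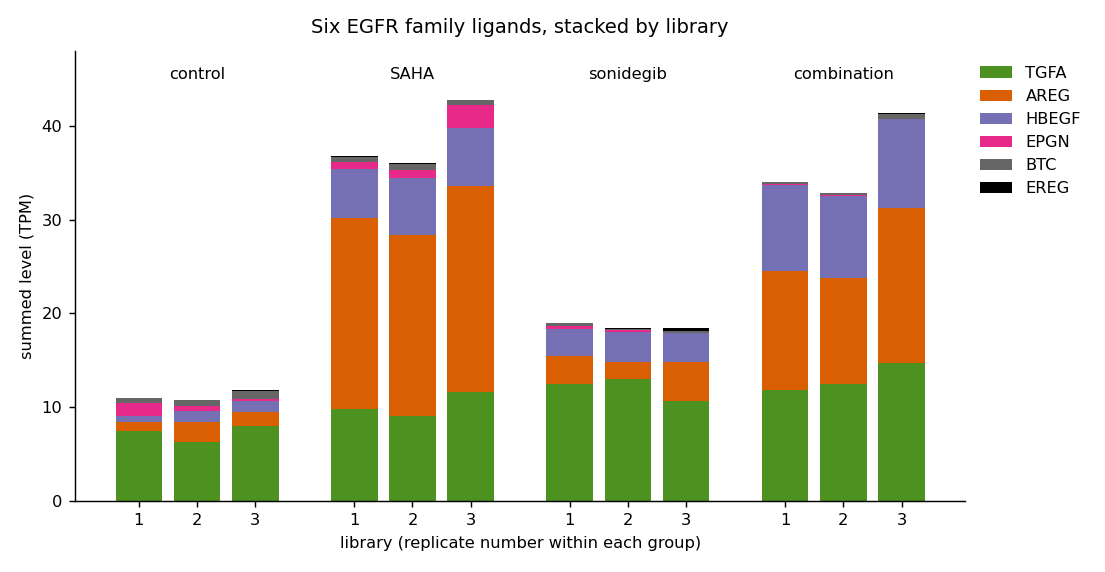
Level of the 6 ligands in TPM, stacked, for each of the 12 libraries (bars numbered by replicate within each group, axis from 0). The bars of the SAHA and combination libraries reach 32.8 to 42.8 TPM and those of control and sonidegib 10.7 to 19 TPM, and TGFA fills most of the latter.

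The order of the members changed with treatment. In control it ran EGFR, ERRFI1, ERBB3, ERBB2, TGFA, AREG, HBEGF, EPGN, BTC and EREG, and the libraries of neighbours overlapped from AREG through BTC. With SAHA AREG moved to the third place (20.6 ± 1.3 TPM), above TGFA (10.2 ± 1.33) and ERBB3 (9.09 ± 0.119), which overlapped, and ERBB2 (3.94 ± 0.805) fell below HBEGF (5.84 ± 0.533). With sonidegib ERBB2 (24.4 ± 1.91) took the third place. With the combination AREG (13.5 ± 2.74) and TGFA (13 ± 1.5) overlapped, as did HBEGF (9.14 ± 0.403) and ERBB3 (9.1 ± 1.08).

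ERRFI1, the inhibitor, was the second most abundant member in all 4 groups. ERRFI1 (ENSG00000116285, chromosome 1, 8004404 to 8026308) stood at 27.1, 27.1 and 37.6 TPM in control, 39.1, 37.3 and 43.5 TPM with SAHA, 33.8, 29.7 and 37 TPM with sonidegib, and 35.6, 38.4 and 48.3 TPM with the combination. Control replicate 3 lay within the range of the treated libraries. ERRFI1 was called higher with SAHA (0.39 ± 0.14, adjusted p = 0.0356) and with both agents (0.41 ± 0.14, adjusted p = 0.0274), but not with sonidegib (0.14 ± 0.14, 95% confidence interval -0.18 to 0.45, adjusted p = 0.441). The SAHA call was lost in 6 of 23 alternatives, among them without control replicate 1 or 2 or SAHA replicate 1 or 3 (0.31 to 0.40, adjusted p = 0.0676 to 0.126). The combination call was lost in 5 of 23, among them without control replicate 1 or 2 or combination replicate 3 (0.28 to 0.33, adjusted p = 0.1 to 0.116).

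**Figure D3:**
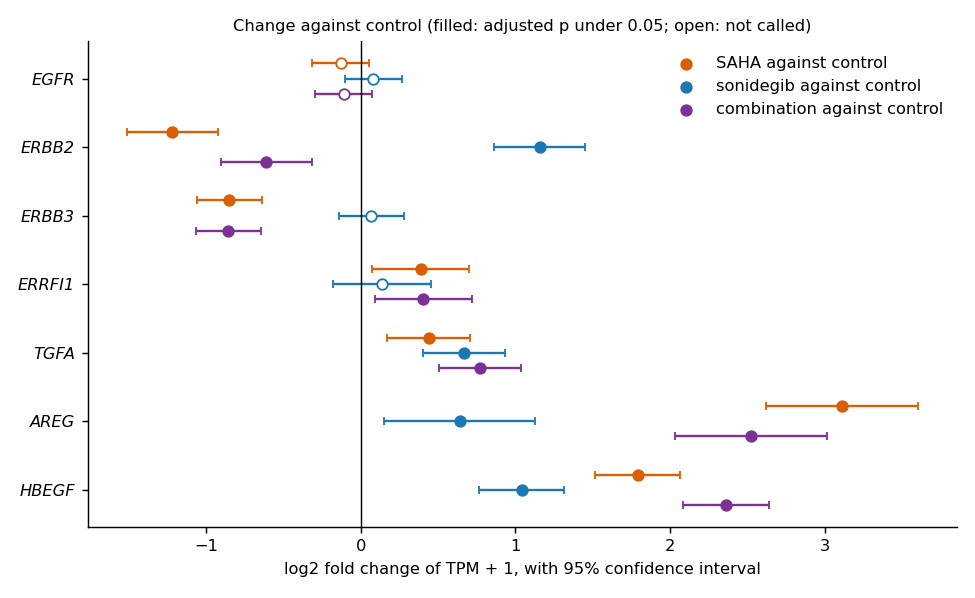
Log2 fold change of TPM + 1 against control (horizontal axis) for the 7 members that passed the filter, with 95% confidence intervals. Colours give SAHA, sonidegib and combination, and filled points were called at an adjusted p under 0.05. ERBB2 is called lower with SAHA and higher with sonidegib, and the 3 EGFR points are open.

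Of the 10 members 7 passed the filter. With SAHA 4 of these were called higher and 2 lower, where 58.7% of all tested genes were called (31.8% higher, 26.9% lower). With sonidegib 4 were called higher and 0 lower, where 55.3% were called (26.1% higher, 29.2% lower). With the combination against control 4 were higher and 2 lower, where 63.7% were called (29.7% higher, 34% lower). The combination against SAHA called 3 higher (ERBB2, TGFA and HBEGF) and 1 lower (AREG), beside 50.9% of all genes (18% higher, 33% lower). The combination against sonidegib called 2 higher (AREG and HBEGF) and 2 lower (ERBB2 and ERBB3), beside 38.5% (17.5% higher, 21% lower). Calls were common among all genes, so these counts set nothing apart about the family.

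The interaction asks whether the SAHA response differed between cells with and without sonidegib. It is the combination minus sonidegib, minus the difference of SAHA and control, and it compares libraries across the sets that differ in 5S ribosomal RNA. Of the 7 tested members 2 were called, both lower, where 31.4% of all tested genes were called (11.8% higher, 19.7% lower). AREG rose less with SAHA after sonidegib, by 1.88 against 3.11 on the log2 scale (interaction -1.23 ± 0.32, adjusted p = 0.012), a call kept in all 22 alternatives, with values from -1.54 to -0.95. ERBB2 fell more, by 1.77 against 1.22 (-0.55 ± 0.19, adjusted p = 0.0451). The ERBB2 call was lost in 12 of 22 alternatives. Those were pseudocounts of 0.1 and 0.5, no filter, and leaving out control replicate 1 or 2, SAHA replicate 1 or 3, any sonidegib replicate, or combination replicate 1 or 3 (-0.61 to -0.45 over those 9 libraries, adjusted p = 0.0524 to 0.102). HBEGF was not called (-0.47 ± 0.18, adjusted p = 0.0646), but its value depended on the settings, from -0.94 to -0.18, and 5 of 21 alternatives called it. Pseudocounts of 0.1 and 0.5 gave -0.94 (adjusted p = 0.0244) and -0.67 (adjusted p = 0.0361), quantile scaling gave -0.18 (adjusted p = 0.423), and leaving out control replicate 3 gave -0.55 (adjusted p = 0.04). For TGFA the interaction was -0.34 ± 0.17 (95% confidence interval -0.71 to 0.04, adjusted p = 0.164). ERBB3 (-0.07 ± 0.14, -0.37 to 0.22, adjusted p = 0.718) and EGFR (-0.06 ± 0.12, -0.32 to 0.20, adjusted p = 0.738) were not called.

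**Figure D4:**
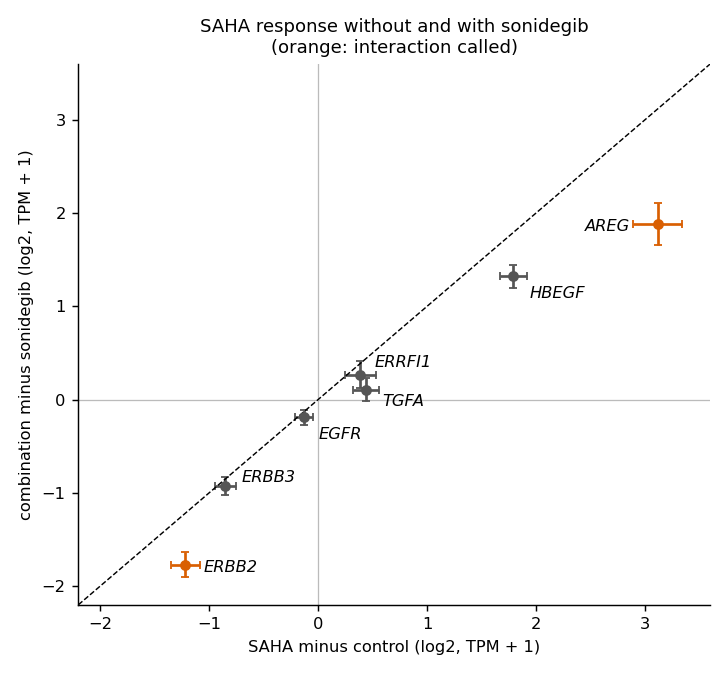
Log2 change with SAHA in cells without sonidegib (horizontal) and with it (vertical) for the 7 tested members, with SE bars. The dashed line marks equal responses. AREG (3.11 and 1.88) and ERBB2 (-1.22 and -1.77), both below the line, are in orange because the interaction was called, and the ERBB2 call was lost in 12 of 22 alternatives.

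The rest of the family was sparse. ERBB4, the fourth receptor, and the neuregulin NRG3 were listed at 0 in all 12 libraries, and the group means of NRG1 and NRG4 were at most 0.05 TPM. EGF itself stood at 1.29, 0.85 and 0.65 TPM in control, 1.67, 1.13 and 1.65 TPM with SAHA, 2.21, 2.15 and 1.93 TPM with sonidegib, and 2.95, 2.19 and 2.6 TPM with the combination. It was called higher with sonidegib (0.69 ± 0.16, adjusted p = 0.00357) and with both agents (0.90 ± 0.16, adjusted p = 0.000485), and not with SAHA (0.37 ± 0.16, adjusted p = 0.071). NRG2 had group means of 0.34, 1.17, 0.673 and 0.333 TPM in control, SAHA, sonidegib and combination. In the fit without a filter it was called higher with SAHA (0.70, adjusted p = 0.00224, 29.9% of genes called) and lower in the combination against SAHA (-0.70, adjusted p = 0.00306).

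Among 4 genes of ligand shedding, ADAM10 was called higher with SAHA, from 49.4 to 70.3 TPM (0.51 ± 0.14, adjusted p = 0.00869), and with both agents (0.52 ± 0.14, adjusted p = 0.00691). ADAM10 is the protease that mainly releases EGF and BTC. ADAM17, the main protease for TGFA, AREG and HBEGF, had means of 17.5 TPM for control and 17.3 TPM for SAHA (-0.01 ± 0.12, adjusted p = 0.934) and was called in no comparison. RHBDF2, which escorts ADAM17 to the cell surface, fell with the combination from 26 to 15.1 TPM (-0.75 ± 0.11, adjusted p = 9.85e-05), and with sonidegib to 20.3 TPM (-0.35 ± 0.11, adjusted p = 0.0188). Its relative RHBDF1 was called in no comparison.

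The downstream genes gave mixed counts. Of 26 adaptors and effectors, SAHA raised 8 and lowered 8 (median -0.03, all tested genes 0.05), beside 31.8% of all genes called higher and 26.9% lower. The 3 largest rises by log2 change were PIK3R2, a PI3K subunit (1.33 ± 0.38), MAPK3, the kinase ERK1 (1.06 ± 0.074), and MAP2K1, the kinase MEK1 (0.98 ± 0.088). PIK3R2 is a scarce transcript that passed the filter only through the SAHA libraries, at 4.68, 1.44 and 3.46 TPM there against 0.78, 0.4 and 0.56 TPM for control, so a rise was a condition of its being tested and its call is no support for the list. The largest falls were ARAF, a RAF kinase (-1.34 ± 0.084), PIK3R1, a PI3K subunit (-1.29 ± 0.16), and GRB7, an ERBB adaptor whose gene neighbours ERBB2 (-0.94 ± 0.081). With the combination 6 rose and 12 fell against control (median -0.06, all tested genes -0.02), beside 29.7% and 34% of all genes. AKT2 (-1.27 ± 0.078), ARAF (-1.19 ± 0.084) and HRAS (-1.09 ± 0.068) fell most. MAPK3 and MAP2K1 went the other way, with means of 68.4 and 37.8 TPM with the combination against 37 and 19.6 TPM in control.

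Of 18 genes of receptor down-regulation and traffic, SAHA raised 10 and lowered 1, SOCS5 (median 0.26, all tested genes 0.05), where 31.8% of all genes were called higher and 26.9% lower. With median-of-ratios or 75th percentile scaling it had 8 higher and 1 lower. CBLB, a ubiquitin ligase that marks EGFR for degradation, rose from 3.5 to 8.04 TPM (1.01 ± 0.091), PTPN1, a phosphatase acting on EGFR, from 20.4 to 41.8 TPM (adjusted p = 2.75e-06), and STAM, an endosomal sorting protein, from 7.31 to 12.4 TPM (0.70 ± 0.15). With the combination 10 rose and 3 fell (median 0.28, all tested genes -0.02), beside 29.7% of all genes higher and 34% lower, and 12 were higher after median-of-ratios, 75th percentile or quantile scaling. The largest rises were CBLB (1.14 ± 0.091), CBL (0.72 ± 0.10) and LRIG1, a membrane protein that restrains ERBB receptors (0.62 ± 0.098). HGS, LRIG3 and USP8 were the 3 that fell.

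Of 15 genes driven by MAPK signalling, SAHA raised 8 and lowered 1 (median 0.31, all tested genes 0.05), beside 31.8% of all genes higher and 26.9% lower. EGR1 rose from 2.56 to 17.5 TPM (2.39 ± 0.11) and DUSP5, a phosphatase of ERK, from 10.7 to 45.8 TPM (4.26-fold, adjusted p = 4.66e-08), while CCND1, cyclin D1, fell by 0.91 ± 0.098. With the combination the list had 2 higher and 8 lower than control (median -0.29, all tested genes -0.02), beside 29.7% and 34% of all genes, and 4 higher and 8 lower after median-of-ratios or 75th percentile scaling. CCND1 (-2.01 ± 0.098) and the AP-1 gene FOSL1 (-1.08 ± 0.19) were among the falls. EGR1 and DUSP5 had means of 7.24 and 16.5 TPM with the combination, above their control means. Against SAHA alone the combination had 0 higher and 13 lower (median -0.61, all tested genes -0.12), beside 33% of all genes called lower and 18% higher. With median-of-ratios, 75th percentile or quantile scaling, which moved the median of all genes in that comparison by 0.11 to 0.12, it had 0 higher and 12 lower. In the interaction 0 of the 15 were called higher and 10 lower (median -0.52, all tested genes -0.07), beside 19.7% of all genes called lower, and the 4 scalings gave 9 or 10 lower.

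The genes next to EGFR on chromosome 7 were listed because the line carries extra EGFR copies, and which of them share the extra copies was not measured here. Several were called where EGFR was not. SEC61G, a subunit of the translocation channel of the endoplasmic reticulum, lies 259 kb before EGFR, and LANCL2, a LanC-like protein, and VOPP1, a vesicular protein, begin 154 and 224 kb after it. LANCL2 stood at 387, 382 and 340 TPM in control, 49.3, 47.9 and 51.1 TPM with SAHA, 63.6, 64.3 and 68.8 TPM with sonidegib, and 32.3, 30.8 and 30.4 TPM with the combination. No 2 groups overlapped. Its log2 change from control was -2.88 ± 0.060 for SAHA, -2.48 ± 0.060 for sonidegib and -3.53 ± 0.060 for the combination, where EGFR had -0.13, 0.08 and -0.11. VOPP1 had group means of 1084, 1340, 973 and 999 TPM in control, SAHA, sonidegib and combination. SEC61G had 11632, 12228, 5029 and 6741 TPM, a change of -1.21 ± 0.085 with sonidegib (adjusted p = 4.81e-07). Of 13 listed neighbours 11 were tested (not VSTM2A and SEPT14). SAHA raised 2 and lowered 5 of them (median -0.16), sonidegib raised 3 and lowered 8 (median -0.39) and the combination raised 2 and lowered 8 (median -0.67). Over all tested genes 58.7%, 55.3% and 63.7% were called in these comparisons, with medians of 0.05, -0.02 and -0.02.

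**Figure D5:**
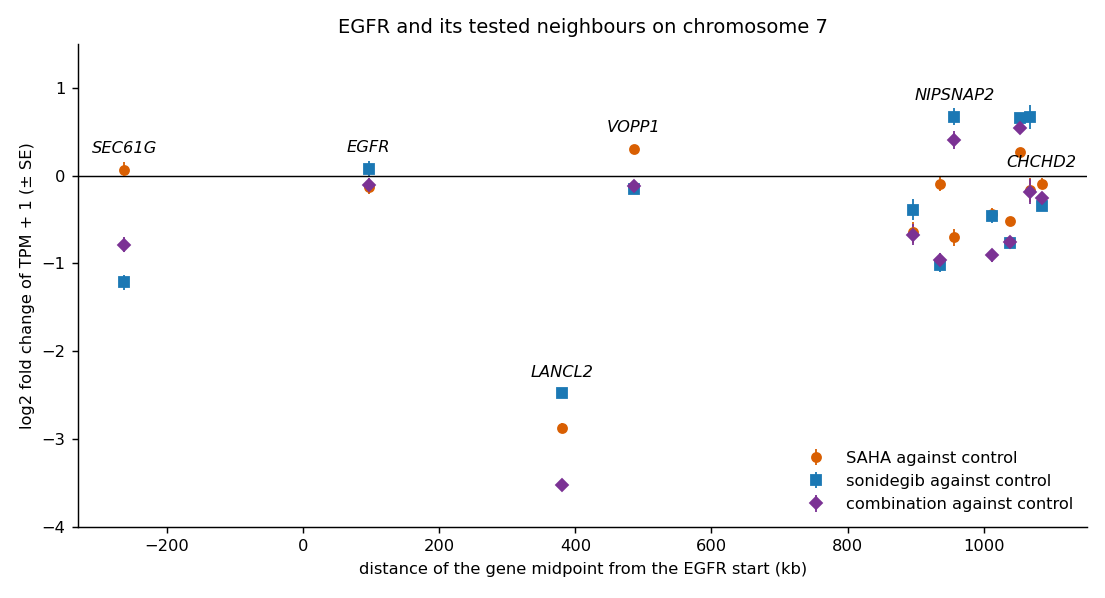
Log2 fold change of TPM + 1 (± SE) against control for EGFR and 11 neighbours on chromosome 7, by the distance of the gene's midpoint from the EGFR start in kb. LANCL2 lies between -2.48 and -3.53 in the 3 comparisons while EGFR lies between -0.13 and 0.08.

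The genes whose levels ran most alike over the 12 libraries were ranked by Pearson correlation of log2(TPM + 1) among the 9659 genes averaging 5 TPM or more. For AREG they were EXT1 (0.991), CCDC85C (0.986) and RMC1 (0.986). EXT1, an enzyme of heparan sulfate synthesis, had means of 8.28, 37, 13.6 and 28.4 TPM in control, SAHA, sonidegib and combination. For ERBB3 they were RERG (0.991), GSDMC (0.983) and CSF1 (0.982), of which CSF1, a macrophage growth factor, went from 15.3 TPM in control to 2.65 TPM with SAHA. For EGFR, which no comparison called, they were MAN2A1 (0.94), IBTK (0.935) and DCTN6 (0.899). These correlations describe the same 12 libraries, which share the 4 group means, and carry no test.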

How the data were processed

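RNA sequencing of total RNA (TRIzol extraction, standard Illumina libraries, per the labels' protocols) covered 12 libraries. The authors deposited TPM per gene, 1 column per library. Bowtie2 2.4.1 and GRCh38 are named per the submitters' processing notes, while the quantifier, annotation release and use of strand are not given in the sources used here. TPM hold no counts: sequencing depth is unknown and counting intervals could not be given. Groups and replicate numbers came from the labels. GENCODE release 29 supplied gene types and positions for 58611 gene identifiers and lacked 713. The symbol SEPT14 appears in the table as a date and was matched by identifier.

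A limma model (version 3.58.1, R 4.3.3) of log2(TPM + 1) had 4 group means, 8 residual degrees of freedom and variances moderated by an intensity trend. Tests covered the 13937 genes averaging 1 TPM or more, two-sided, with Benjamini-Hochberg adjustment within each of 6 comparisons. The fit was also run on simulated data with independent normal noise and few changed genes. Far more genes were called in these data, so that run does not check the calls given here. Lists held 127 symbols. All members were named, with up to 3 rises and 3 falls per list. Members and lists were chosen with earlier results of these data known. Alternatives were pseudocounts of 0.1 and 0.5, no filter, a filter at 5 TPM, median-of-ratios, 75th percentile, quantile and protein-coding scaling, a replicate block, no intensity trend, only the groups compared, and leaving out each library.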

Additional observations from a re-analysis of the deposited data

Results flagged for a closer look

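The SAHA response of 2 members differed between cells with and without sonidegib by the interaction test (limma, Benjamini-Hochberg over all tested genes). The same test called 31.4% of all tested genes (11.8% higher, 19.7% lower), so these 2 calls set nothing apart about the family. For AREG the interaction was -1.23 ± 0.32 on the log2 scale (adjusted p = 0.012). All 3 combination libraries lay below all 3 SAHA libraries for AREG. That is a separate comparison, whose call for AREG was lost in 15 of 23 alternatives. For ERBB2 it was -0.55 ± 0.19 (adjusted p = 0.0451), and 12 of 22 alternatives lost that call. Groups of 3 libraries are too small for a test of single outlying libraries.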

How the results depend on the processing

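Of 26 called results on members that passed the filter, 20 kept their call and direction in every alternative that could be run. No called result among the 26 changed sign. The 6 that lost a call in some alternative were AREG with sonidegib against control and in the combination against SAHA, TGFA in the combination against SAHA, ERRFI1 with SAHA and with the combination against control, and ERBB2 in the interaction. For a filter at 5 TPM there is no value for HBEGF. The number of members called in the interaction was 2, fell to 1 with no filter, and ranged from 1 to 3 when each library was left out in turn. In the combination against SAHA it was 4 and ranged from 2 to 4 with each library left out. The causes were not tested, though leaving out a library also leaves fewer samples. Same-numbered libraries of 2 groups correlated in their deviations from the group means at -0.06 to 0.11, above 0.1 in 1 of 18 pairs. These low correlations over all tested genes do not settle whether same-numbered libraries are paired. ERRFI1 was highest in replicate 3 of every group (37.6, 43.5, 37 and 48.3 TPM in control, SAHA, sonidegib and combination). The replicate block raised the number of all genes called in every comparison, from 5370 to 5817 in the combination against sonidegib. With this block the member calls in the combination against sonidegib went from 4 to 6, adding EGFR (-0.19, adjusted p = 0.0476) and ERRFI1 (0.27, adjusted p = 0.0196), and the interaction calls from 2 to 3, adding HBEGF (adjusted p = 0.0413). It left the number of members called at 6, 4, 6 and 4 in the other comparisons. ERRFI1 was also called in the combination against sonidegib after median-of-ratios scaling (0.29, adjusted p = 0.0472). Levels below 1 TPM (EREG, BTC, EPGN) have no known read support, so their differences are the least certain. The calls of BTC and EPGN came from the fit with no filter and were not put through the other alternatives.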
